A study of Homo sapiens with 6 samples.

Results

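The genes described here are the clustered replication-dependent histone genes, chosen by symbol alone: every gene whose symbol, updated through its Entrez identifier, is H1-1 to H1-6 or an H2AC, H2BC, H3C or H4C gene. All 69 such genes of the RefSeq annotation were named by at least 1 probe set, a group of short probes read as 1 intensity. They were read by 113 of the 49293 probe sets, of which 104 named 1 gene and 9 named several. Of the 69 genes, 61 had a probe set of their own and 8 were read only by shared ones. By class these were 6 H1, 17 H2A, 18 H2B, 13 H3 and 15 H4 genes. By place, 55 lie in the large cluster once called HIST1 on chromosome 6, 11 in HIST2, 2 in HIST3, and 1, H4C16, stands by itself.

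RNA came from U87, an established human glioblastoma line, in 3 samples with the microRNA miR-151a overexpressed (miR-151a UP) and 3 with a negative control microRNA overexpressed (miR-NC), each read on a 1-colour Affymetrix array. Both groups therefore carried an introduced microRNA, and the comparison addresses which transcripts differ when that microRNA is miR-151a. The labels name no vector, miRNA arm, time point or clone, nor any drug. Nothing in them says that the samples came from separate cultures, so a p-value measures the spread among these samples alone, and that spread may be technical.

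Histones H2A, H2B, H3 and H4 form the protein core around which DNA is wrapped in the nucleosome, and H1 binds the DNA between nucleosomes. The replication-dependent genes supply them in S phase, when the genome is copied, and nearly all H4 genes encode an identical protein. Their messenger RNAs usually end in a stem-loop bound by the protein SLBP and not in a poly(A) tail, although several of the genes also give longer, polyadenylated transcripts. A labelling started from poly(A) tails and one started within the transcript can therefore read these genes differently, and which was used here is not settled.

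The stretches of DNA upstream of the start sites are shown first for members whose probe sets moved, because histone genes of a class share promoter letters and some share the whole stretch. Each sequence is the 250 bases before the start in RefSeq GRCh38.p14, written 5′ to 3′ on the gene's strand, upstream of the transcribed part of that gene. H4C14 lies at chr1:149832407-149832656 on the plus strand and H4C8 at chr6:26285535-26285784 on the minus strand, and capitals mark TTCAAT followed, after any 2 bases, by GGTCCG.
H4C14: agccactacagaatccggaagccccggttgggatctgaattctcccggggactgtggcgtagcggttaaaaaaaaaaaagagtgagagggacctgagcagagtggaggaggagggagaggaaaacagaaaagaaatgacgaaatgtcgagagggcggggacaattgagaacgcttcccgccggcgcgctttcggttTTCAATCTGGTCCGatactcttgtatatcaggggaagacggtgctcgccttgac
H4C8: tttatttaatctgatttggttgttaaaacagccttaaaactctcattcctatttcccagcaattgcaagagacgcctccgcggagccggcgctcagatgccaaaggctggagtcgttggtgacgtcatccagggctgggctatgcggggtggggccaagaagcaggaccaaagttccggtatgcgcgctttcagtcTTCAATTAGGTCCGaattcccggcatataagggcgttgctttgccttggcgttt
The H4C14 and H4C15 windows of 300 bases (these 250 and the first bases after the start) were identical in all 300, whereas H4C14 and H4C8 shared no stretch longer than 10 bases. That motif was written with both sequences in view and searched on both strands. It stood in 4 of the 27305 genes with a promoter sequence, and 3 of the 4 were H4C14, H4C15 and H4C8. Its last letters, GGTCCG, stood in 12 of 13 H4 promoters, against 11.3% of all promoters. H4C7, which did not pass the test, was the one without them, and the other H4 genes with a promoter sequence that did not pass carried them as well.

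For the H2A class, H2AC18 lies at chr1:149842751-149843000 on the minus strand and H2AC6 at chr6:26123922-26124171 on the plus strand. Capitals mark the CCAAT box, the TATA box (TATAAA) and the octamer (ATTTGCAT) on either strand, so that ATTGG and ATGCAAAT are matches too.
H2AC18: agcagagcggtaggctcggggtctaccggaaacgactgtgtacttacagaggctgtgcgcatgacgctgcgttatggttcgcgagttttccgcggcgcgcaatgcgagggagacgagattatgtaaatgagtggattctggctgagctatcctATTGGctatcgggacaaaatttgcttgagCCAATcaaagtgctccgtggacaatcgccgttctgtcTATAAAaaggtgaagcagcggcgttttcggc
H2AC6: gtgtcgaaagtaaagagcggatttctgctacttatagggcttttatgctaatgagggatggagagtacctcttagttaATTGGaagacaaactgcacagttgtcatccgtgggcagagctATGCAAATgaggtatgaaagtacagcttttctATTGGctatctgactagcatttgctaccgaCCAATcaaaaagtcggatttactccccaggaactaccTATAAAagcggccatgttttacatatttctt
The H2AC18 window shared a stretch of 299 of its 300 bases with that of H2AC19. The H2AC6 window shared 255 bases with the opposite strand of the H2BC4 window, since these genes start 246 bases apart and run away from each other. For the H1 class, H1-1 lies at chr6:26017788-26018037 on the minus strand and H1-4 at chr6:26156079-26156328 on the plus strand. Capitals there mark the H1 box, whose letters are AAACACA, beside the CCAAT box and the TATA box. Matches of either strand are marked, so some of the capitals are the reverse complement of these letters.
H1-1: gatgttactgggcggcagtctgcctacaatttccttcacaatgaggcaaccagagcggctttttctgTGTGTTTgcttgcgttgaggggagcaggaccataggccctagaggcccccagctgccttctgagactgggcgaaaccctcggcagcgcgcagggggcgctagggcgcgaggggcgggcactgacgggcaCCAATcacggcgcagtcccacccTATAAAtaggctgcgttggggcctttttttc
H1-4: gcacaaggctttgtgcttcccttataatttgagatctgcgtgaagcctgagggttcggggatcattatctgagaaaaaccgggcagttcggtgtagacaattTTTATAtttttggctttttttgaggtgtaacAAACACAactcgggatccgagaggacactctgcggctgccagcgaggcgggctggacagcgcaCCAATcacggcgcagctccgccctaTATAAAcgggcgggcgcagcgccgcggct
Promoter sequences were matched for 64 of the 69 members, and H4C1, H4C3, H2AC12, H3C11 and H3C12 had none. CCAAT stood within 250 bases of the start in 84.4% of the 64, against 37.0% of all 27305 genes. It stood in every H1, H2A, H2B and H3 promoter matched but in 3 of 13 H4 promoters. TATAAA stood in 43 of the 64 members (67.2%) and in 3563 of the 27305 genes, and the octamer in 40.6% against 2.03%. The octamer was found in 11 of 16 H2A and 14 of 18 H2B promoters. AAACACA stood in 6 of 6 H1 promoters, in none of the other members and in 5.95% of all genes. The H1 genes that fell, the one that rose and the 2 that did not pass all held it. These letters are a description of the windows and are not shown to be bound.

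The arrays resembled each other closely. Median intensities ran from 57.1 to 58.6, and correlations of log2 values were 0.9980 to 0.9984 within groups and 0.9956 to 0.9958 between them. The glial markers checked the labelled line in part: the intermediate filament gene VIM read 18644 to 19565 and CD44 5431 to 6568 over the 6 samples, while GFAP read 60.0 to 63.6, near the array median, and SOX2 44.8 to 51.8, PDGFRA 12.4 to 21.3 and AQP4 11.7 to 16.8, below it. Of 10 glial markers 1, NES, was lower (log2 difference -0.31, adjusted p = 0.0079), and the list summed to 24790 to 25871 in miR-151a UP and 25232 to 26663 in miR-NC. Of 3 fibroblast markers COL1A1 (-0.45, adjusted p = 0.0028) and COL1A2 (-0.39, adjusted p = 0.0019) were lower. That list summed to 1930 to 2086 against 2596 to 2640. No marker was listed at 0. Markers of immune cells, endothelium, epithelium, neurons and oligodendrocytes gave 0 calls among 16 genes by limma, with 1 higher and 1 lower at an unadjusted p under 0.05. The part of these markers in the histone results was not tested.

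A subset of the histone genes rose and a smaller one fell, while most probe sets did not pass the test. In RNA from whole cultures, a changed share of cells in S phase and a changed amount of histone RNA per cell cannot be told apart. Differences are miR-151a UP minus miR-NC in log2(intensity + 1). A probe set was called where limma's Benjamini-Hochberg adjusted p over all 49293 probe sets was under 0.05. Of the 113 histone probe sets, 24 were higher (21.2%), 5 lower (4.42%) and 84 not past the threshold, against 6.81% higher and 7.27% lower over all probe sets. Their median difference was 0.03, beside -0.01 over all probe sets. The higher ones named 21 genes and the lower ones 4, with no gene in both. In all 29 the intensities of the groups did not overlap. Over the whole set of 113, 30 were higher and 10 lower in this sense, against 15.3% and 18.6% of all probe sets. A change of at least 2-fold was reached by 2 called probe sets, both higher, against 0.321% of all, and 0 were lower by that much, against 0.00203% of all.

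Most histone probe sets were dim. Their level lay below the array median in 94 of 113 and below the lower quartile of every array in 44. Among the 19 above the median, 11 were higher and 2 lower, against 10.4% and 12.2% of all probe sets at that level. Among the 94 below it, 13 were higher and 3 lower, against 3.25% and 2.34%. The 78 dim probe sets that did not pass ranged from -0.30 to 0.38 with a median of -0.02. Changes of dim probe sets are understated on this scale and rest on little signal. The 24 higher probe sets became 15 without miR-151a UP replicate 2 or 3 and to 12 without miR-NC replicate 1, and the count of lower ones from 5 to 3 without miR-151a UP replicate 3. Of the 29 calls, 13 passed in every alternative tried and 16 lost the call in at least 1.

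**Figure D1:**
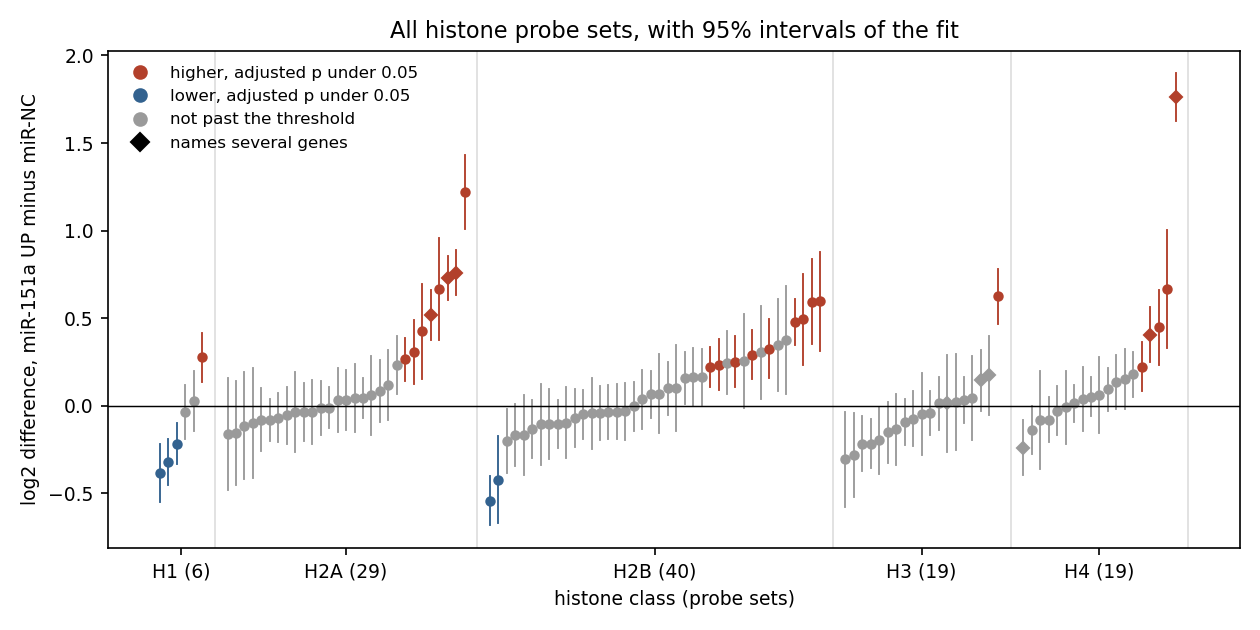
Log2 difference of each of the 113 histone probe sets with its 95% interval of the fit, grouped by histone class and ordered within a class by the difference. Colours mark the call, circles probe sets that name 1 gene and diamonds those that name several. The highest points are the H4C14/H4C15 probe set at 1.76 and the H2AC6 probe set at 1.22, and 3 of the 5 lower calls are H1 genes.

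In the H4 class 6 of 15 genes were named by a probe set that rose by limma and none by one that fell. At an unadjusted p under 0.05, 1 H4 probe set was lower. Of the 19 H4 probe sets 26.3% rose and none fell, against 6.81% and 7.27% of all probe sets. The highest difference of any histone probe set was that of H4C14 and H4C15, copies of an H4 gene in the HIST2 cluster that the array reads together. It read 497, 519.7 and 507 in miR-151a UP replicates 1, 2 and 3 and 158, 139 and 151 in miR-NC. Every miR-151a UP sample was over 3 times as bright as any miR-NC sample. The difference was 1.76 (SE 0.059, 3.39-fold, adjusted p = 2.4e-06). A second probe set for the same genes was far dimmer, at 11.5, 13.7 and 12.8 against 14.7, 14.9 and 15.5, and its difference was -0.24 (adjusted p = 0.055). The probe sets for these genes thus disagreed in direction, with the dim one short of the threshold.

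H4C11 and H4C12, of the HIST1 cluster, shared a probe set that read 191, 218 and 218 against 149, 158 and 164, a difference of 0.41 (SE 0.069, adjusted p = 0.0075). H4C12's own brighter probe set read 94.2, 91.0 and 97.9 against 75.7, 84.8 and 81.6, a difference of 0.22 (adjusted p = 0.043), a call that leaving out any single sample removed. Its other one did not pass (0.06, adjusted p = 0.73). H4C8 read 39.3, 61.1 and 42.4 against 27.2, 30.0 and 30.1. Its difference was 0.67 (SE 0.15, adjusted p = 0.021), with replicate 2 well above the other miR-151a UP samples. Without miR-NC replicate 1 or 3 its adjusted p rose above the threshold. H4C16, the gene outside the 3 clusters, read 34.6, 36.3 and 30.8 against 21.4, 26.1 and 26.3, a difference of 0.45 (adjusted p = 0.017) whose call was lost without miR-151a UP replicate 1 or 2.

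The brightest H4 reading did not pass. H4C3, in the HIST1 cluster, was read by 2 probe sets brighter than 99.5% and 99.6% of all probe sets. They read 7407, 7659 and 7339 against 7364, 7155 and 7093, and 8157, 8275 and 8067 against 8148, 8051 and 8057. The groups overlapped in both, since miR-NC replicate 1 lay within the miR-151a UP range each time. The differences were 0.05 (95% interval -0.06 to 0.16) and 0.01 (-0.09 to 0.12), with adjusted p of 0.54 and 0.88. A rise of the size seen for H4C14 and H4C15 lies far outside both intervals.

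In the H2A class 7 of 17 genes rose on at least 1 probe set and none fell by limma, nor did any at an unadjusted p under 0.05. Of the 28 probe sets that name only H2A genes 25% rose, against 6.81% of all probe sets. H2AC6, which faces H2BC4 in the HIST1 cluster, read 231, 247 and 246 in miR-151a UP and 89.9, 104 and 117 in miR-NC. The means were 241 ± 8.80 and 104 ± 13.7 (SD, n = 3), and the difference was 1.22 (SE 0.092, 2.33-fold, adjusted p = 0.00018). With a pseudocount of 32 it was 1.01. H2AC18 and H2AC19, a pair of near-identical HIST2 genes that the array reads together, were the brightest of the class. Their probe sets read 1083, 1093 and 1185 against 674, 643 and 664, and 748, 778 and 791 against 448, 488 and 460. The groups were far apart in both. The differences were 0.76 (SE 0.055, adjusted p = 0.00015) and 0.73 (SE 0.054, adjusted p = 0.00017), and neither moved below 0.69 in any alternative.

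The other H2A genes that rose were dimmer. H2AC7 shares a probe set with H3C4 that read 24.9, 26.7 and 24.5 against 16.2, 18.4 and 17.6 (0.52, adjusted p = 0.0018). Its own read 11.9, 10.4 and 12.7 against 9.68, 9.42 and 8.49 (0.31, adjusted p = 0.039). The second of these lies among the dimmest signals on the array and lost its call under 7 of 11 alternatives. H2AC11 read 25.05, 26.08 and 36.07 against 18.04, 18.61 and 16.52 (0.67, adjusted p = 0.012), which became 0.29 with a pseudocount of 32, still past the threshold. The other H2AC11 probe set did not pass (-0.01, adjusted p = 0.93). H2AC25, in the HIST3 cluster, read 104, 102 and 98.1 against 81.3, 84.0 and 87.6 (0.27, adjusted p = 0.015). H2AC8 read 40.1, 43.9 and 43.5 against 34.8, 34.9 and 25.2 (0.43, adjusted p = 0.049), just inside the threshold. Its other probe set, brighter by a small margin in mean log2, did not pass (0.23, adjusted p = 0.068), so H2AC8 is not among the genes that rose by their brightest probe set. The H2AC25 call was lost with the replicate block and without miR-NC replicate 1 or 2, and the H2AC8 call under 7 of 12 alternatives, 4 of them a sample left out. H2AC20, in the HIST2 cluster and above the median level, read 437, 472 and 459 against 487, 468 and 491. Its groups overlapped, with a difference of -0.08 (95% interval -0.20 to 0.04, adjusted p = 0.38).

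**Figure D2:**
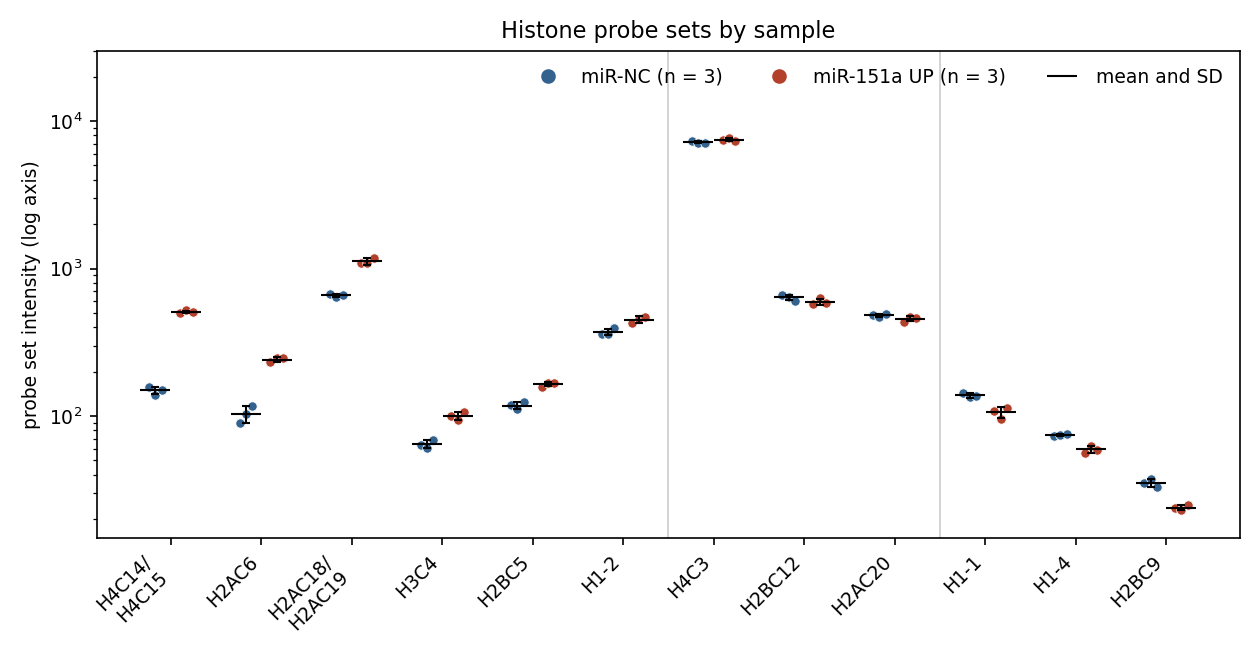
Intensity of 12 histone probe sets in each sample on a log axis, miR-NC in blue and miR-151a UP in red, with mean and SD (n = 3 per group). The first 6 rose, the next 3 (H4C3, H2BC12 and H2AC20) did not pass the test, and the last 3 (H1-1, H1-4 and H2BC9) fell. H4C14/H4C15 moves from 149 to 508 on average while H4C3 moves from 7204 to 7468.

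In the H2B class 6 of 18 genes rose on at least 1 probe set and 1, H2BC9, fell. Of the 40 H2B probe sets 22.5% rose and 5% fell, against 6.81% and 7.27% of all probe sets. H2BC5, a gene known for polyadenylated transcripts, read 158, 167 and 167 against 118, 111 and 124 on the probe set with the larger difference (0.48, SE 0.057, adjusted p = 0.0018). A second probe set read 169, 185 and 191 against 144, 150.3 and 150.1 (0.29, adjusted p = 0.016). Its remaining one did not pass (0.25, adjusted p = 0.075), although its groups did not overlap either, so all 3 pointed the same way. The 0.29 call was lost without miR-151a UP replicate 2 or 3 or miR-NC replicate 1.

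H2BC11 read 33.6, 34.3 and 37.9 against 26.0, 19.2 and 24.3 (0.59, SE 0.11, adjusted p = 0.0091) and kept its call in every alternative. The other 2 H2BC11 probe sets, both dimmer, did not pass (0.04 and 0.31, adjusted p = 0.80 and 0.12). H2BC4, the neighbour of H2AC6, read 27.8, 23.9 and 20.5 against 15.9, 17.5 and 13.3 (0.60, adjusted p = 0.017) and, on a dimmer probe set, 9.75, 8.98 and 10.2 against 8.38, 7.55 and 8.19 (0.23, adjusted p = 0.043). The brighter probe set lost the call without miR-151a UP replicate 1 or 2, and the dimmer one under 8 of 11 alternatives. H2BC8 read 24.0, 26.8 and 25.6 against 18.2, 20.8 and 21.5 (0.33, adjusted p = 0.023), lost without miR-151a UP replicate 2 or 3 or miR-NC replicate 1, and a dimmer probe set did not pass (0.35, adjusted p = 0.086). H2BC18, in HIST2, was read by 4 probe sets, of which 2 passed. These read 27.1, 34.7 and 38.1 against 23.7, 23.9 and 21.8 (0.49, adjusted p = 0.024) and 9.56, 10.3 and 10.7 against 8.83, 8.55 and 7.84 (0.25, adjusted p = 0.034). H2BC21, another HIST2 gene, read 50.0, 47.2 and 47.1 against 41.5, 40.6 and 41.3 (0.22, adjusted p = 0.022), while its other 2 probe sets, which had nearly equal values, gave -0.03. The H2BC18 and H2BC21 calls were lost with the replicate block and when miR-NC replicate 1, 2 or 3 was left out, and those of H2BC18 also without miR-151a UP replicate 2 or 3, that of H2BC21 also without miR-151a UP replicate 1.

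H2BC9 stood apart from the rest of the class. It read 23.7, 23.1 and 24.9 in miR-151a UP and 34.9, 37.6 and 33.3 in miR-NC, a difference of -0.54 (SE 0.061, adjusted p = 0.0014), or 31.3% lower. A second probe set read 26.3, 18.9 and 24.5 against 30.9, 31.6 and 31.1 (-0.42, adjusted p = 0.036), a call lost without miR-151a UP replicate 3 or any single miR-NC sample. The remaining one gave -0.13 and did not pass. The brightest H2B probe set, of H2BC12, read 572, 628 and 582 against 659, 646 and 607. Its groups overlapped, and the difference was -0.10 (95% interval -0.24 to 0.03, adjusted p = 0.31). H2BC15 read 61.9, 71.2 and 66.1 against 79.8, 76.4 and 67.9, again with overlap (-0.17, adjusted p = 0.21).

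In the H3 class 1 of 13 genes rose. Of the 19 probe sets that name only H3 genes 5.26% rose, near the 6.81% of all probe sets. H3C4 read 99.7, 93.6 and 106 against 63.4, 60.9 and 68.9, a difference of 0.63 (SE 0.068, 1.54-fold, adjusted p = 0.0012) that kept its call in every alternative. The probe set it shares with H2AC7 rose as well, as given above. The other H3 probe set above the median level, of H3C8, read 81.3, 79.3 and 73.0 against 79.0, 96.8 and 93.2. Its difference was -0.20 (adjusted p = 0.17), and it passed only without miR-NC replicate 1, the sample that overlapped with the other group. The other 3 probe sets of H3C8 gave -0.28, -0.22 and 0.01, none past the threshold (adjusted p = 0.12, 0.076 and 0.92). No H3 probe set was called lower by limma, and 5 had an unadjusted p under 0.05.

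The H1 class went in both directions. H1-1, H1-3 and H1-4 fell, H1-2 rose, and H1-5 and H1-6 did not pass, each on a single probe set of its own. Of the 6 H1 probe sets 16.7% rose and 50% fell, against 6.81% and 7.27% of all probe sets. H1-1 read 108, 95.7 and 114 against 143, 134 and 137 (-0.38, SE 0.071, adjusted p = 0.011), or 23.3% lower. H1-4 read 56.0, 62.9 and 59.1 against 72.7, 74.5 and 75.6 (-0.32, SE 0.057, adjusted p = 0.0093), or 19.9% lower. Both calls held in every alternative. H1-3 read 49.8, 49.6 and 48.3 against 57.5, 59.7 and 55.0 (-0.22, adjusted p = 0.029), or 13.9% lower, but passed in only 5 of 12 alternatives and lost the call without each sample but miR-NC replicate 3. H1-2, known for polyadenylated transcripts, was the brightest H1 reading at 427, 455 and 471 against 360.0, 362 and 394. It rose by 0.28 (SE 0.061, adjusted p = 0.021), and lost the call without miR-151a UP replicate 2 or 3 or miR-NC replicate 1 or 2. H1-5 gave 0.03 (95% interval -0.15 to 0.20) and H1-6, the testis form, -0.03 (-0.19 to 0.12). The 6 genes of the class lie in the same cluster, and all hold the H1 box and the CCAAT box. The letters TATAAA stood before H1-1, H1-3 and H1-4, which fell, and not before the other 3, a pattern seen after the values and not tested.

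By cluster, 13 of 55 HIST1 genes rose and 4 fell, 6 of 11 HIST2 genes rose and none fell, and 1 of 2 HIST3 genes rose. In HIST2, 1 probe set was lower at an unadjusted p under 0.05. These counts, like those by class, take a gene as moved where any probe set naming it passed. Of the 90 HIST1 probe sets 17.8% rose and 5.56% fell, against 6.81% and 7.27% of all probe sets. Of the 19 HIST2 probe sets 31.6% rose and none fell. By the brightest probe set naming a gene alone, 11 of 54 HIST1 genes rose and 5 fell. Of 4 HIST2 genes 1 rose and none fell by that measure. Over all genes 7.27% rose and 8.11% fell. The 6 HIST2 genes that rose by any probe set were H4C14, H4C15, H2AC18, H2AC19, H2BC18 and H2BC21. The first 4 were read through 3 called probe sets that could not separate the copies, so they are fewer independent readings than genes. The difference between the clusters was not tested.

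With 1 probe set per gene, the brightest that names it alone, 14 of 61 histone genes were higher and 5 lower, against 7.27% and 8.11% of 18132 genes. The lower ones gained H3C1, at an adjusted p of 0.047 (0.054 over probe sets). H4C11, H4C14, H4C15, H2AC18 and H2AC19 are absent from this count because they had no probe set of their own. The 14 became 7 without miR-NC replicate 1, and the 5 became 3 without miR-151a UP replicate 3. Histone genes of a class are alike in sequence, and most called probe sets carry array suffixes that mark probes shared between transcripts or open to cross-hybridization: 12 of the 24 higher ones end in s, 5 in x and 2 in a, and of the 5 lower ones 1 ends in x and 1 in a. Assignment to a single gene within a class is therefore uncertain where no plain probe set exists.

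Many H2A and H2B genes start back to back, so that 1 stretch of promoter lies between them. Within 600 bases, 12 such pairs had readings, 11 of an H2A with an H2B gene and 1 of H3C4 with H2BC7 through a second H3C4 start. That start and the H2AC7 start both lie 223 bases from the H2BC7 start, so 1 stretch of promoter is counted in 2 pairs. Counting a gene as risen where any of its probe sets passed, both genes rose in 3 pairs (H2AC6 with H2BC4, H2AC8 with H2BC8, and H2AC11 with H2BC11), 1 gene rose in 4, neither passed in 5, and none fell. By the brightest probe set of each gene, both rose in 2 pairs and 1 in 5, since the brightest H2AC8 probe set did not pass. H2AC7 and H3C4, whose probe set is partly shared, account for 2 of the 4, both opposite H2BC7, which gave -0.03 on its brightest probe set. The remaining 2 were H2BC21 opposite H2AC20 and H2AC25 opposite H2BC26. H2BC26 gave 0.17 and 0.16 without passing. These counts describe the pairs and rest on dim probe sets for most members. No share over other gene pairs was worked out beside them.

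**Figure D3:**
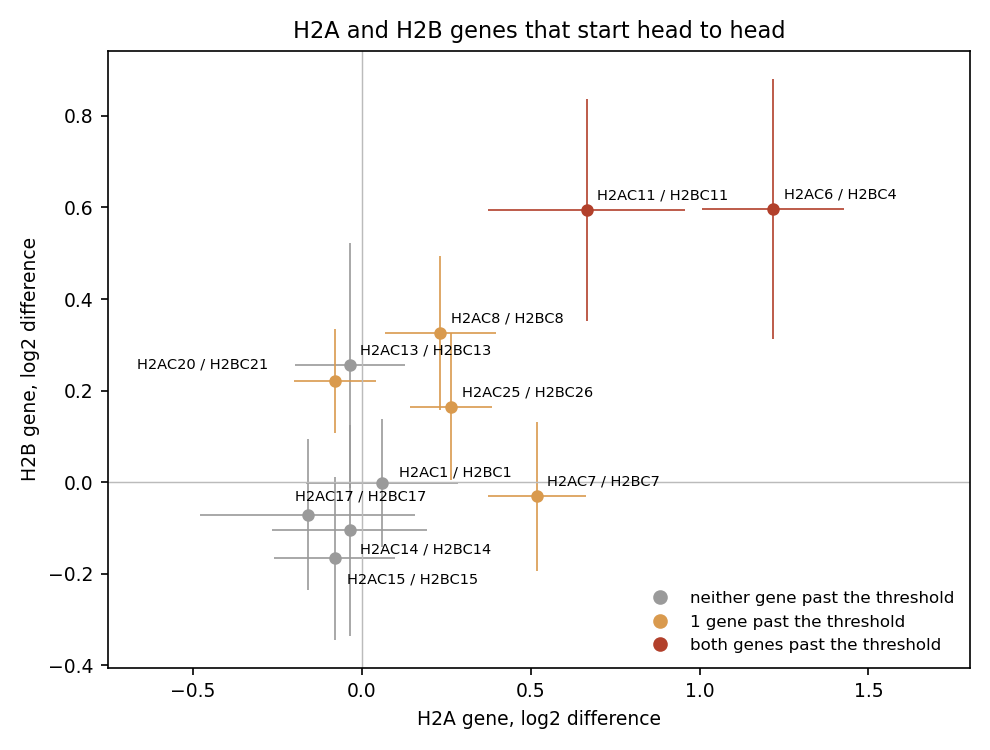
Log2 difference of the H2A gene (horizontal axis) against that of the H2B gene (vertical axis) for the 11 head-to-head pairs, each by its brightest probe set with the 95% interval of the fit. The 2 pairs with both genes past the threshold lie at the upper right, H2AC6/H2BC4 at 1.22 and 0.60 and H2AC11/H2BC11 at 0.67 and 0.59. H2AC7/H2BC7 lies at 0.52 and -0.03, where H2AC7 is read by the probe set that also names H3C4.

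Of the 6 members listed as known for polyadenylated transcripts, 5 rose (H2AC6, H2BC5, H2BC21, H2BC4 and H1-2), none fell (0 also at an unadjusted p under 0.05) and H2BC12 did not pass, with a median of 0.28 beside -0.01 over all genes, of which 7.27% rose and 8.11% fell. Leaving out miR-151a UP replicate 2 left 3 of the 5, as did leaving out miR-NC replicate 2, and leaving out miR-NC replicate 1 left 2. This list of 6 was chosen with earlier results of these data known. Over all 61 histone genes, the 6 included, 14 rose and 5 fell by the brightest probe set naming each alone. RefSeq gives 8 members a gene length above 1000 bases, a limit chosen after the values were seen: H2BC4, H2BC5, H2BC12, H2BC18, H2BC21, H3C4, H3C6 and H4C15. Of their 19 probe sets 10 rose and none fell, with a median of 0.25, where 6.81% of all probe sets rose and 7.27% fell. A probe set was counted here if any gene it names is that long. The H4C14/H4C15 and H2AC7/H3C4 probe sets also name the short genes H4C14 (396 bases) and H2AC7 (510 bases). Their signal cannot be assigned to the long gene. Of the other 94, 14 rose and 5 fell, with a median of -0.01. Several of the genes are the same in both groupings, and no test was made.

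The array's own end probes moved beside these results. The 18S ribosomal RNA, also a transcript without a long poly(A) tail, read 6242, 6196 and 6257 in miR-151a UP and 3853, 3513 and 3641 in miR-NC on its 3′ probe set. On the middle one it read 4198, 4273 and 4224 against 4104, 4049 and 4080, and on the 5′ one 4756, 4853 and 4715 against 5309, 5101 and 5084. Its log2 ratio of 3′ to 5′ was thus 0.38 ± 0.029 against -0.49 ± 0.039 (SD, n = 3). For beta-actin the ratio was 0.29 ± 0.015 against 0.40 ± 0.030, the opposite way, and for GAPDH 0.047 ± 0.0042 against 0.041 ± 0.011. The part of this end shift in the histone differences was not tested.

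Genes that work with histones are given by 4 lists, each by its counts and its median beside -0.01 over all genes. Of 41 measured DNA replication genes, which act in the same phase of the cell cycle, none rose by limma (0 also at an unadjusted p under 0.05) and 26 fell (median -0.24), against 7.27% and 8.11% of all genes. CCNE2, cyclin E2 of the entry into S phase, read 172, 183 and 173 against 271, 252 and 254 (-0.55, adjusted p = 0.00056). RFC3, a subunit of the clamp loader, gave -0.39 (adjusted p = 0.0012), POLE2 of DNA polymerase epsilon -0.39 (adjusted p = 0.0015), GINS4 of the replicative helicase -0.37 (adjusted p = 0.0016) and RRM2, which makes deoxynucleotides, -0.35 (adjusted p = 0.0017). RFC3 passed on 3 of 4 probe sets and GINS4 on 2 of 4. The means over their probe sets were smaller, -0.29 (adjusted p = 0.0031) and -0.17 (adjusted p = 0.042). The histone genes and the DNA replication list thus differed in the direction of most of their calls. The difference between the lists was not tested.

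Of 31 measured genes for histone mRNA synthesis and processing, 2 rose and 4 fell (median -0.01). These were 6.45% and 12.9% of the list, against 7.27% and 8.11% of all genes, so the share of rises was near that of all genes. SLBP, the stem-loop binding protein, read 922, 973 and 958 against 1118, 1098 and 1089, a fall of 13.7% (-0.21, adjusted p = 0.018) seen on both of its probe sets. SNRPE, SNRPD3 and SNRPF, ring proteins of the U7 particle that cuts histone transcripts and of the spliceosomal particles, fell by 0.25, 0.21 and 0.17 on the log2 scale (adjusted p = 0.0097, 0.018 and 0.032). They passed on 1 of 2, 1 of 2 and 2 of 5 probe sets. The mean over the SNRPD3 probe sets did not pass (-0.09, adjusted p = 0.28). HINFP, a factor of H4 promoters, rose by 0.24 (adjusted p = 0.046) on 1 of 3 probe sets, and PAN2, a poly(A) nuclease, by 0.18 (adjusted p = 0.031). NPAT, the coactivator of histone gene clusters, did not pass (-0.14, adjusted p = 0.16), nor did the U7 protein LSM11 (0.05, adjusted p = 0.81). With a single sample left out the falls numbered 1 to 3: 2 when it was miR-151a UP replicate 2 or miR-NC replicate 1 or 2, and 1 when it was miR-NC replicate 3. The rises numbered 0 for every sample left out but miR-151a UP replicate 2, where both passed.

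Of 29 histone chaperone and assembly genes, 1 rose and 10 fell (median -0.08). That is 3.45% and 34.5% of the list, against 7.27% and 8.11% of all genes. HIRA, which deposits the variant H3.3, read 164, 199 and 174 against 288, 271 and 289 (-0.66, adjusted p = 0.0014), though only 1 of its 2 probe sets passed. ASF1B gave -0.40 (adjusted p = 0.0019), HJURP, the CENPA chaperone, -0.33 (adjusted p = 0.0031), ANP32E, which removes H2A.Z, -0.33 (adjusted p = 0.0045) and NASP -0.29 (adjusted p = 0.0047). NASP passed on 1 of 2 probe sets. VPS72, which carries H2A.Z, rose by 0.21 (adjusted p = 0.016) on 1 of 2 probe sets, a call lost without miR-151a UP replicate 3 and when the miR-NC sample numbered 2 or 3 was left out.

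Of 15 measured variant histone genes, which are mostly made outside S phase, 1 rose and 4 fell (median -0.04). As shares of the list these were 6.67%, near the 7.27% of all genes that rose, and 26.7%, against 8.11% that fell. CENPA, the centromeric H3, read 605, 569 and 595 against 753, 786 and 734 and fell on all 4 of its probe sets (-0.36, adjusted p = 0.0029). H2AX, marked at DNA breaks, gave -0.29 (adjusted p = 0.013), MACROH2A1 -0.21 (adjusted p = 0.020) and H2AZ2 -0.19 (adjusted p = 0.034). MACROH2A1 passed on 1 of 3 probe sets and H2AZ2 on 4 of 5. H1-10, a linker histone, rose by 0.27 (adjusted p = 0.011) on 1 of 2 probe sets, and their mean did not pass (0.16, adjusted p = 0.19). The 4 falls became 1 without miR-NC replicate 1 and 2 without miR-151a UP replicate 1 or 3 or miR-NC replicate 2 or 3.

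**Figure D4:**
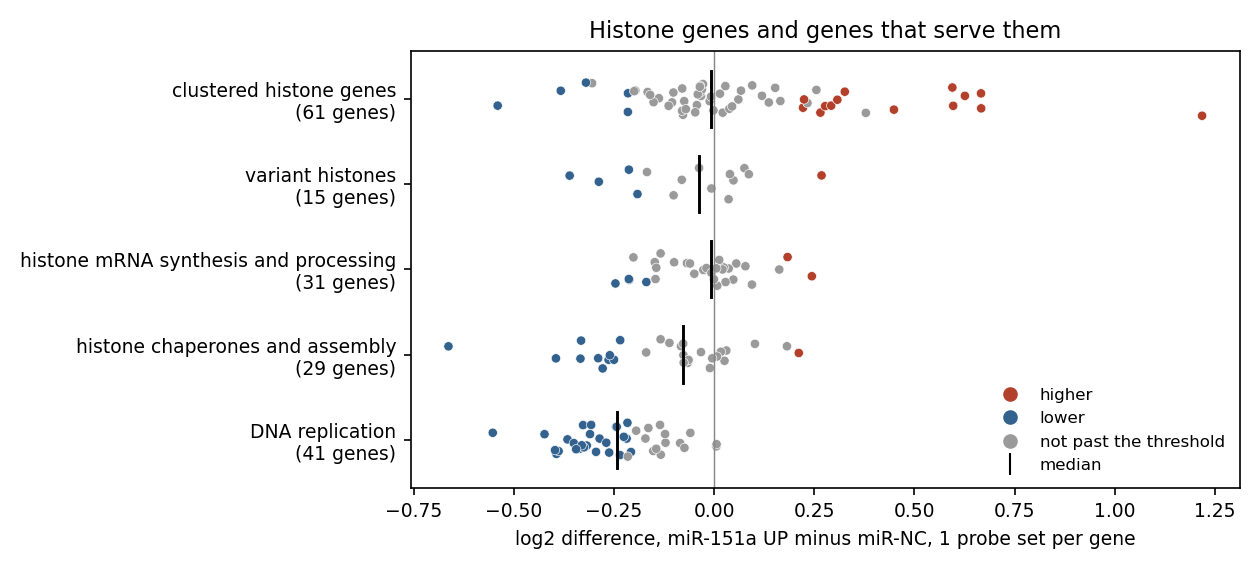
Log2 difference of 61 clustered histone genes and of 4 related gene lists, 1 probe set per gene, each point a gene coloured by its call and the black bar the list's median. The clustered histone genes spread to both sides of 0 with a median of -0.01, up to 1.22 for H2AC6, while 39 of 41 DNA replication genes lie below 0. H4C14/H4C15 and H2AC18/H2AC19 are not drawn because no probe set names 1 of them alone.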

How the data were processed

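Total RNA was labelled with biotin and read on 1-colour Affymetrix arrays, 3 samples per group. The labels' protocols state a whole-transcript labelling kit, while the identifiers of the probe sets have the form used on 3 prime arrays, so the labelling is not settled. The authors deposited 1 linear intensity per probe set and sample. MAS5 is named in the submitters' processing notes, with no version or role. Background correction and normalization between arrays are steps not given in the sources used here. Without detection calls, no gene is said to be absent. The number of arrays, 6, limits the precision.

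Of 49395 deposited probe sets, 102 controls were left out of the tests. Gene names came from the platform annotation and were brought up to date by Entrez identifier against RefSeq GRCh38.p14, the source of all sequences and gene lengths. Deposited intensities were put on the log2(intensity + 1) scale, on which fold changes are also given. Groups were compared by limma 3.58.1 under R 4.3.3 (lmFit, eBayes, no covariate, two-sided), p-values being adjusted by Benjamini-Hochberg across the 49293 probe sets, or across 18132 genes by the brightest probe set naming each alone. The fit was tested on simulated data. An exact permutation test of 3 against 3 samples cannot go below p = 0.1. Promoter letters were searched on both strands. Figures used matplotlib 3.10.9.

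The members and lists were chosen with earlier results of these data known. By rule, every called member and the bright ones of each class are given by sample, and of related lists up to 5 passing genes by smallest p in each direction. NPAT, LSM11 and H3C1 were named after their values were seen. The alternatives tried were a pseudocount of 32, quantile normalization, centring on the array median, leaving out probe sets below the 0.25 quantile of level, a variance trend with robust fit, the replicate number as a block, each sample left out in turn, a mean over all probe sets of a gene, only probe sets naming 1 gene, and an unadjusted p of 0.05.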

Additional observations from a re-analysis of the deposited data

How the results depend on the processing

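None of the 29 called histone probe sets changed sign under an alternative, nor did any called gene when its probe sets were averaged. That mean did turn the sign of 4 of 61 clustered histone genes and 8 of 31 processing genes, none of them called, among them H2BC12 from -0.10 to 0.03 and LSM11 from 0.05 to -0.14. Replicate numbers did not pair the samples: deviations of same-numbered samples correlated at -0.076, -0.12 and 0.066, so the fit without the block is the main one. With the block the 24 higher and 5 lower histone probe sets became 17 and 3, the 14 higher and 5 lower genes 10 and 3, and 19 of 29 calls passed. The block also took variant histones to 0 higher and 1 lower, mRNA synthesis and processing to 0 and 1, and chaperones to 0 higher. At an unadjusted p of 0.05, 32 histone probe sets were higher and 12 lower. The share of all probe sets at that threshold is not given here. The variance trend gave 8 lower processing genes and 2 higher chaperone genes, a pseudocount of 32 gave 2 higher chaperone genes, and the mean over probe sets gave 0 higher variant histones and 0 higher chaperones. Leaving out 1 sample at a time gave 12 to 18 higher and 3 to 6 lower histone probe sets, 7 to 11 higher and 3 to 4 lower genes, 1 higher and 1 to 3 lower variant histones, 0 to 2 higher and 1 to 3 lower processing genes, 0 to 1 higher and 8 to 10 lower chaperones, 20 to 22 lower and 0 higher DNA replication genes, and 2 to 4 higher and 0 lower genes of the polyadenylated list. The cause of these losses was not tested. A pseudocount of 32, which by construction shrinks differences of dim probe sets, took H2BC4 from 0.60 to 0.24, H2AC7/H3C4 from 0.52 to 0.22, H4C8 from 0.67 to 0.37 and H2BC9 from -0.54 to -0.27.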
